A study of Canis lupus familiaris with 2 samples.

Results

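The intermediate windows described here are CpG-dense stretches of the dog genome that were neither unmethylated nor fully methylated in untreated cells of MDCK, a kidney epithelial line of the dog. The genome was divided into fixed windows of 1000 bp. A window on chromosomes 1 to 38 was CpG-dense when it held at least 40 listed CpG sites and at least 10 kept sites, a kept site having 5 or more calls in both libraries. It was intermediate when the mean of its site levels in the control was 30 to 60% and its level on each strand was 25 to 65%. Of 80682 CpG-dense windows, 6538 (8.1%) met these limits. The control level chose them, so it is given as a description, and tests that use the control calls of these windows support nothing about them as a group. The strand level was read as the mean of site levels on that strand. Read from summed calls it gave 5413 windows, of which 5262 were shared.

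In mammals most CpG sites carry methyl groups on both strands, whereas CpG-dense sequence at many gene starts is kept free of them. A maintenance enzyme, DNMT1, copies the mark to the new strand after each division. A level in between in a population of cells can come from alleles that differ, as at imprinted genes, from cells that differ, or from low and high sites that lie next to each other. The deposited counts do not join sites to single molecules, but they do tell whether all sites of a window lay in between or whether low and high sites were averaged.

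The mesenchymal culture had received TGF-beta at 5 ng/ml, a growth factor known to turn epithelial cells mesenchymal, during the 30 days of the experiment. The epithelial control was untreated and was kept in culture for the same 30 days, and both were grown in DMEM with serum. Each group is 1 whole-genome bisulfite library, so no value below has a replicate check. The TGF-beta library held 1019766599 calls and the control 656122583. Over the intermediate windows the median was 36 calls per kept site in the TGF-beta library and 15 in the control, close to the medians of 41 and 17 over CpG-dense windows. Exact 95% binomial (Clopper-Pearson) intervals are given, which take in counting error alone. They and the exact test below treat calls as independent. Since 1 read can carry calls at several neighbouring sites, both overstate precision. Positions refer to canFam3, and gene annotation and genome sequence are not used here.

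CpG-dense windows at intermediate level were the sparse middle of a broad distribution. In the control 11132 CpG-dense windows (13.8%) lay under 10%, and 31960 (39.6%) at 80% or more. Per 5 points of level the count fell to 756 windows between 30 and 35% and was 2178 between 55 and 60%, against 12150 between 90 and 95%. The intermediate windows therefore lay more at the upper end of their range, with 1907 between 55 and 60% and 678 between 30 and 35%. The same limits applied to the TGF-beta library chose 6853 windows. Both lists held 5134 windows, 74.9% of those chosen in the TGF-beta library and 78.5% of those chosen in the control.

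**Figure D1:**
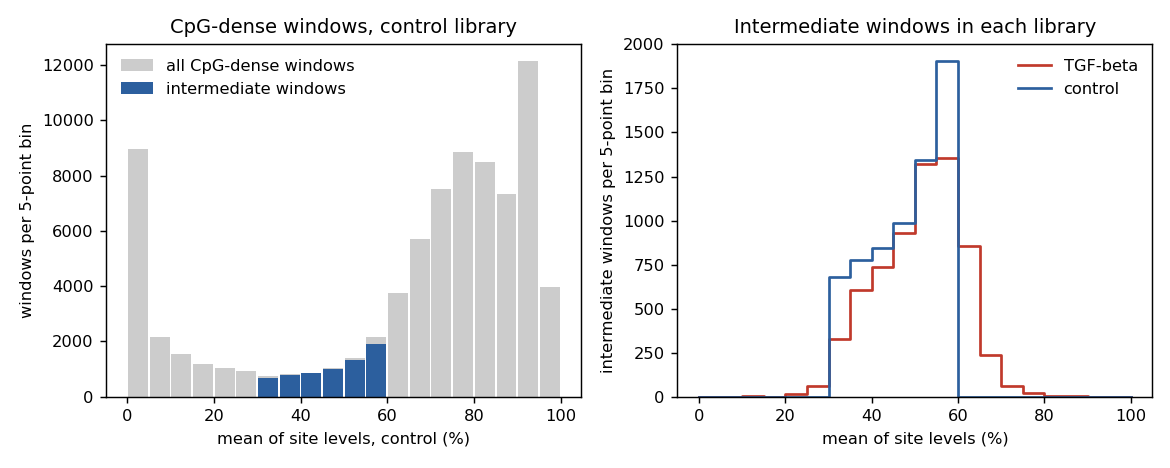
Left, CpG-dense windows per 5-point bin of control level (grey), with the 6538 intermediate windows in blue. Right, the intermediate windows per 5-point bin of the mean of site levels in the TGF-beta library (red) and the control (blue); the red line passes the upper limit of 60% for 1188 windows.

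Most intermediate windows stayed in between in the TGF-beta library and were slightly higher there. Their median level was 52.4% in the TGF-beta library (quartiles 44.3 and 58.2) and 49.9% in the control (quartiles 41.1 and 55.8). The median difference of TGF-beta minus control was 2.34 percentage points (quartiles -0.474 and 5.77), and 4649 windows (71.1%) were higher in the TGF-beta library. Over all CpG-dense windows the median difference was 0.489 points and 60.6% were higher. A higher level was not particular to the intermediate windows: in CpG-dense windows at 10 to 30% in the control the median difference was 1.92 points with 77.5% higher, and 75.8% of unmethylated ones were higher. In the TGF-beta library 5271 of the windows (80.6%) lay between 30 and 60%, 1188 (18.2%) lay over 60% and 79 (1.21%) under 30%. The libraries were within 5 points of each other in 4252 windows (65%) and within 10 points in 5816 (89%).

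The higher level was seen on both strands and on each autosome. The first positions of the CpG pairs differed by a median of 2.55 points and the second positions by 2.44. On all 38 autosomes the median difference of the intermediate windows was above 0, over a range of 1.33 to 4.14 points. Its size varied with how the windows were chosen and read. When the TGF-beta library chose, the median difference was 1.4 points. It was 2.02 points in windows chosen on the first positions of the control and read on the second, and 2.18 points the other way round.

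Few intermediate windows differed by 20 points or more. In each window the summed calls were set against each other by a two-sided Fisher's exact test, with Benjamini-Hochberg adjustment across 1497941 windows. Calls needed an adjusted p below 0.05 and at least 20 points of difference. Of the intermediate windows 118 (1.8%) were called higher in the TGF-beta library, against 2.22% of all windows tested and 0.389% of CpG-dense windows. Called lower were 39 (0.597%), or 18 with strand levels read from summed calls, against 1.43% of all windows tested and 0.131% of CpG-dense windows. In CpG-dense windows at 10 to 30% in the control the shares were 2.26% called higher and 0.993% called lower, above those of the intermediate windows. The test on calls compares these libraries and not the conditions, and since the control calls chose the windows, these shares are a description. Windows at the ends of the scale have little room to differ by 20 points in one direction.

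The mean of site levels, which weights each site equally, was then read in the called windows. By that mean too, 55 of the 118 differed by 20 points, which is 0.841% of the intermediate windows, against 0.192% of CpG-dense windows. Among CpG-dense windows at 10 to 30% in the control this share was higher, at 1.27%. Of the 39 called lower 7 differed by 20 points in this way, or 0.107% of the intermediate windows, against 0.0198% of CpG-dense windows. Among those at 10 to 30% it was 0 of 4731. For falls, which of these classes had the larger share thus depended on the measure. The median of that mean was 63.6% in the TGF-beta library and 44.9% in the control for the 118. For the 39 it was 38.4% and 45.2%, with 32.2% and 57.4% by summed calls, and in 9 of them the mean of site levels differed in the opposite direction.

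Site levels within the intermediate windows spread more widely than a shared level per window would give. Low and high sites were frequent, but sites between 20 and 80% were the largest single class. How much of a window's level came from averaging low and high sites was not tested. The windows held 261893 sites that had 10 or more calls in each library. Of these, 41.7% lay between 20 and 80% in the TGF-beta library and 43.3% in the control. Sites under 20% made up 25.8% and 27.8%, and sites at 80% or more made up 32.5% and 28.9%. If all sites of a window had shared its mean level, binomial sampling at these depths would have put 98.3% of sites between 20 and 80% in the TGF-beta library and 95.7% in the control. The variance between sites of a window was a median of 13.8 times the binomial one in the TGF-beta library and 6.37 times in the control. That ratio grows with depth, and the SD of site levels was alike, with medians of 34 points and 33.7 points. Between the strands of the same site the variance was 1.25 times the binomial one in the TGF-beta library and 1.2 times in the control.

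The order of low and high sites was largely kept between the cultures. Within a window, site levels in the TGF-beta library and the control had a median correlation of 0.87, and across all 261893 sites the deviations from the window means had r = 0.885. Sites share windows and are not independent, so this is a description. Of the sites under 20% in the control, 74.9% were under 20% in the TGF-beta library and 0.367% were at 80% or more. Of the sites at 80% or more in the control, 85.7% were at 80% or more in the TGF-beta library and 0.0714% were under 20%.

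The windows fell into 3 patterns by rule. Kept sites were divided at the middle of their order into a left and a right part, and a step window had parts whose mean levels differed by at least 40 points. An even window had no step, and at least 70% of its sites with 10 or more calls lay between 20 and 80%. All others were mixed. In the TGF-beta library 391 windows (5.98%, 5.42 to 6.58) were even, 2259 (34.6%, 33.4 to 35.7) had a step and 3888 (59.5%, 58.3 to 60.7) were mixed. In the control 690 (10.6%, 9.82 to 11.3) were even, 2380 (36.4%, 35.2 to 37.6) had a step and 3468 (53%, 51.8 to 54.3) were mixed. Intervals here treat windows as independent, which neighbours are not.

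Most step and mixed windows had the same pattern in both libraries. Of the windows with a step in the control, 88.2% had one in the TGF-beta library, and of the mixed ones 92.5% were mixed there. Of the even ones 37.8% were even in the TGF-beta library and 59.9% were mixed. Read the other way, 261 of the 391 windows even in the TGF-beta library were even in the control. With equal calls per site 5.81% were even in the TGF-beta library and 10.7% in the control. The shares lay closer together in the 6853 windows that the TGF-beta library chose, at 6.95% in the TGF-beta library and 8.38% in the control.

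**Figure D2:**
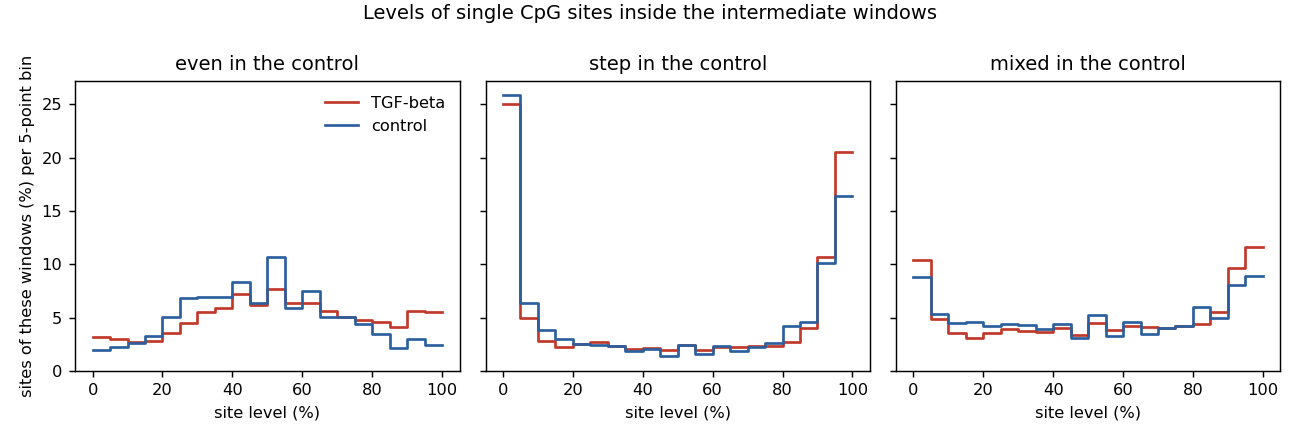
Levels of single CpG sites covered by 10 or more calls in each library, as the percentage of sites per 5-point bin, for windows that were even, step or mixed in the control (TGF-beta red, control blue). Most sites of step windows lie under 20% or at 80% or more. Between 20 and 80% lie 27.2% of their sites in the TGF-beta library, against 25.7% in the control.

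Step windows held a lower and a higher stretch of sites, whose parts differed by 60 points or more in the control in 1298 of them. In 2380 such windows the best single edge in the control, placed by least squares with at least 3 sites on each side, separated medians of 9.49% and 83.4%. The same control calls placed the edge and gave these medians, which favours a wide gap. The low side came first along the chromosome in 1157. In the TGF-beta library the low and high sides were in the same order in 2378 of the 2380. The edge lay between the same sites in 1080 windows (45.4%), within 50 bp in 1800 (75.6%) and within 100 bp in 2028 (85.2%), and over 200 bp away in 100. Where it lay elsewhere, it had moved into the low side in 793 windows and into the high side in 507.

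Levels on both sides of the edge were slightly higher in the TGF-beta library. The edge was placed on first-position calls of the control and levels were read on second-position calls, in 2372 windows. The low side had a median of 14.3% in the TGF-beta library and 9.9% in the control, with a median difference of 3.07 points, and was higher in 73.1% of windows. The windows themselves had been chosen as intermediate and as steps on control calls of both positions, which favours a low control level on the low side and a high one on the high side, so the sides are a description. The high side had 84.7% and 83.2%, with a median difference of 1.41 points, and was higher in 60.5%. The low side was higher by 10 points or more in 521 windows and lower by as much in 77, against 210 and 114 for the high side.

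**Figure D3:**
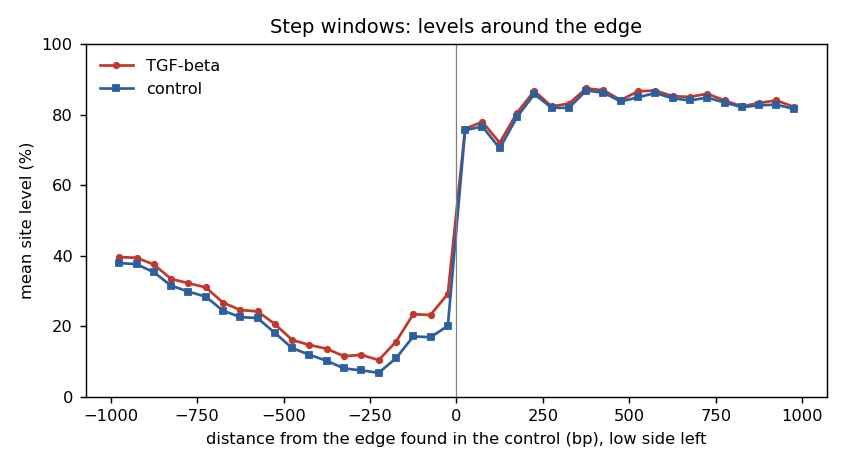
Mean site level in bins of 50 bp around the edge found in the control, over step windows turned so that the low side is left (TGF-beta red, control blue). The jump at 0 in the control is set by the choice of the edge; in the TGF-beta library the mean is 29.2% in the last bin of the low side and 76% in the first bin of the high side.

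The steepest steps were picked for the largest difference between their parts and do not stand for all step windows. Over all step windows the 50 bp bins next to the edge averaged 29.2% and 76% in the TGF-beta library. In the control, which placed the edge, they averaged 20.1% and 75.6%. On chromosome 7 at 54569001 to 54570000 the left part of 50 kept sites was at 95.2% in the TGF-beta library and 97% in the control, and the right part at 0.588% and 0.272%. The edge, the middle of a gap between sites, lay 742 bp from the start of the window in both libraries. On chromosome 15 at 3306001 to 3307000 the left part of 57 sites was at 1.84% and 0.45% and the right part at 92.9% in both libraries, with the edge at 517 bp in each. On chromosome 20 at 57525001 to 57526000 the parts were at 94% and 4.78% in the TGF-beta library and at 94.6% and 1.59% in the control. The edge there lay at 692 bp in the TGF-beta library and 669 bp in the control.

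On chromosome 18 at 37743001 to 37744000, with 26 kept of 50 listed sites, the left part was at 88.9% in the TGF-beta library and 95.2% in the control, and the right part at 2.03% and 3.08%. In these 4 windows means of site levels differed by -3.66 to 1.32 points between the libraries. By summed calls the difference was 5.42 points in the window of chromosome 7, and -12.4, -11.5 and -11.7 points in those of chromosomes 20, 15 and 18. The measures thus differed by several points in windows made of low and high sites. Over the intermediate windows the sites with more calls than the window's median were higher than the others by a median of 6.8 points in the TGF-beta library and 7 points in the control.

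Even windows had most sites in between in the control by rule. The variance between their sites was still a median of 7.19 times the binomial one in the TGF-beta library and 2.97 times in the control. The SD of their site levels had medians of 26.3 and 24.6 points. Of the 3 patterns, even windows were the densest in CpG. They held a median of 63 listed sites with a spacing of 8 bp, against 56.5 sites and 9 bp in step windows and 49 sites and 12 bp in mixed ones. Their strands differed more, by a median of 3.98 points in the TGF-beta library and 5.68 in the control, against 2.71 and 3.53 over all intermediate windows. The median difference of TGF-beta minus control was 4.25 points in even windows, 2.42 in step windows and 2.06 in mixed windows.

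The 4 windows with the smallest spread of site levels in the control, among those with at least 40 kept sites and usual depth, did not all have strands alike. On chromosome 13 at 4927001 to 4928000 the level was 48.3% in the TGF-beta library and 40.4% in the control, with a site SD of 13.3 and 10 points. Its control strands were at 53.6% and 27.8%. On chromosome 36 at 21447001 to 21448000 the level was 46.4% and 39.9%, and the TGF-beta strands were at 70.4% and 39.6%. On chromosome 20 at 39093001 to 39094000 it was 46.1% and 45.2%, and the TGF-beta strands were at 70% and 38.6%. On chromosome 7 at 16781001 to 16782000 it was 44.7% and 30.5%, with TGF-beta strands at 51% and 50.5% and control strands at 25.5% and 39.3%.

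A stricter set was therefore taken after these values were seen, in which the strands differed by under 10 points and each held 40 to 60% of the calls, in both libraries. It held 1782 intermediate windows, of which 169 (9.48%) were even in the control, 668 (37.5%) had a step and 945 (53%) were mixed. Even in both libraries were 64 windows on 28 chromosomes, none next to another. Their median level was 51.9% in the TGF-beta library and 48.2% in the control, and 54 of the 64 lay between 30 and 60% in the TGF-beta library. None was called higher and 1 was called lower by Fisher's exact test. The shares were 2.22% and 1.43% of all windows tested, and 0.389% and 0.131% of CpG-dense windows. The TGF-beta library helped to choose the 64, which left less room for a large difference, so these counts are a description.

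Among these 64, the 4 of usual depth with the smallest site SD in the more variable library were picked after their values were seen. On chromosome 10 at 20065001 to 20066000 the 92 sites averaged 41.4% in the TGF-beta library (42.2% by summed calls, 40.4 to 44, 2893 calls) and 43.6% in the control (45.5%, 42.9 to 48.1, 1452 calls). The strands there were at 40.9% and 41.4% in the TGF-beta library and at 41.9% and 43.6% in the control. The variance between its sites was 1.61 and 1.22 times the binomial one, where 1 would stand for sites that share a level. The window before it was at 49.8% in the TGF-beta library and 64.1% in the control and the one after it at 11% and 11.7%.

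On chromosome 24 at 47250001 to 47251000 the level was 61.1% in the TGF-beta library and 54.9% in the control over 73 sites. On chromosome 14 at 40395001 to 40396000 it was 33.2% and 40.7% over 58 sites, between neighbouring windows at 87.3% and 96.3% in the TGF-beta library and 85.8% and 95.8% in the control. On chromosome 34 at 10228001 to 10229000 it was 39% and 34%, with 83 of 157 listed sites kept. The 4 windows differed by -7.48 to 6.26 points between the libraries. Both libraries had picked these 4 for a small spread. Over all 64 windows the difference ran from -25.1 to 22.1 points, with a median of 3.25.

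**Figure D4:**
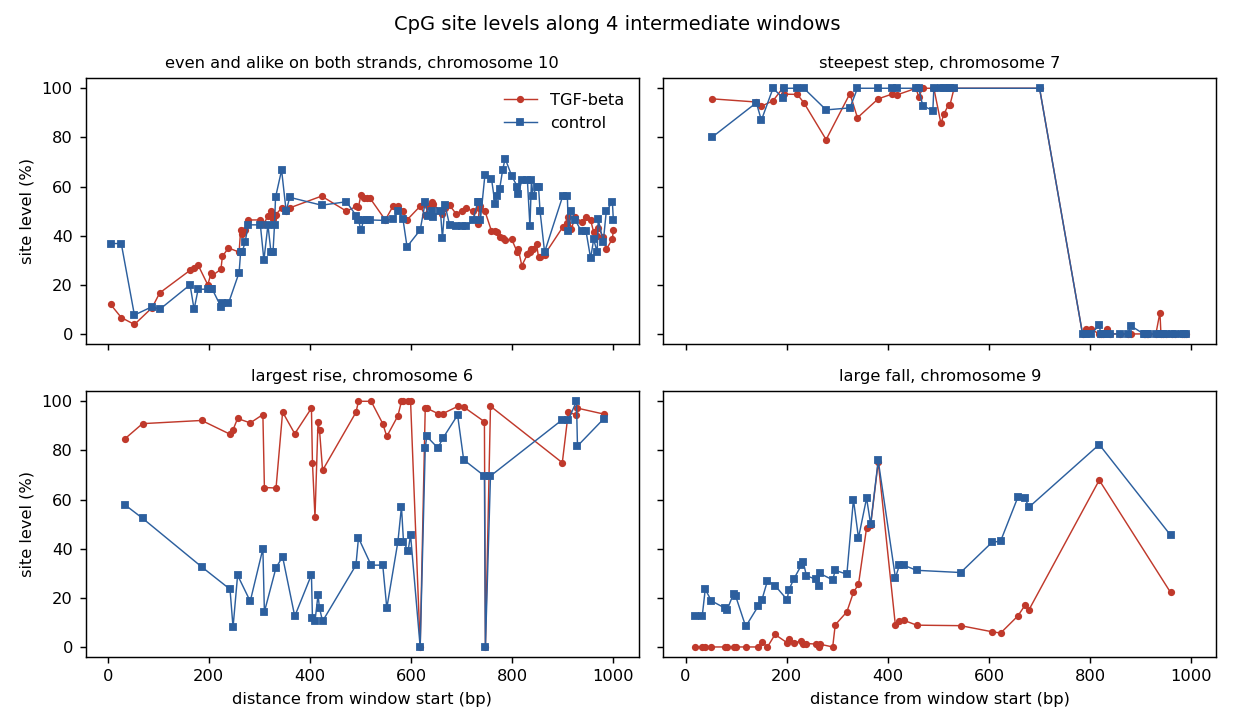
Site levels along 4 intermediate windows of 1000 bp (TGF-beta red circles, control blue squares). The window on chromosome 10 averages 41.4% in the TGF-beta library, against 43.6% in the control, with its leftmost sites lower than the rest; the window on chromosome 7 has its edge at 742 bp in both, and the windows on chromosomes 6 and 9 differ by 40.8 and -22.7 points (TGF-beta minus control).

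Mixed windows, the largest group, were those that met neither of the other rules. In the TGF-beta library 47% of their sites lay between 20 and 80%, against 49.1% in the control. In the control 395 of them (11.4%) had a middle group of sites, of 3 groups of like number, that was lower than both outer groups by 20 points or more, and 290 of these had it in the TGF-beta library too. The reverse shape, a higher middle, was seen in 196 (5.65%), and in 136 of these in the TGF-beta library. The remaining mixed windows showed neither shape at this size. The median correlation of site levels between the libraries was 0.847 in mixed windows, against 0.937 in step windows and 0.676 in even ones.

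Levels next to the windows varied, and over the 3 patterns together an intermediate neighbour was the most frequent case. In the control at least 1 adjacent window was itself at 30 to 60% for 43.2% of the 6184 intermediate windows with both neighbours measured. This share was 52.1% for even, 23.3% for step and 55% for mixed windows. Both adjacent windows were at 60% or more in 31.7% of the 6184, and in 25.9% of step windows. In 23.9%, 1 neighbour was under 30% and the other at 60% or more, and this share was 49.6% for step, 13.5% for even and 8.5% for mixed windows. Both neighbours were under 30% in 69 windows (1.12%). An unmethylated CpG-dense window lay directly next to 31.5% of step windows, 5.36% of even ones and 2.62% of mixed ones, against 1.01% of highly methylated CpG-dense windows. The control both set the patterns and gave these levels, so the shares are a description.

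Around the windows the means of the libraries lay close together. At 1 kb the windows on the low side of a step were at a mean of 36.6% in the TGF-beta library and 34.6% in the control, and those on the high side at 84% and 83.2%. At 10 kb from even windows the means were 63.1% and 62.3% before and 62.5% and 61.9% after, and at 10 kb from mixed windows 61.2% and 61.1% before and 61.3% and 60.9% after. CpG sites thinned out over the same distance. The median number of listed sites fell to 23 at 2 kb on either side of the intermediate windows, against 53 in the windows themselves.

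**Figure D5:**
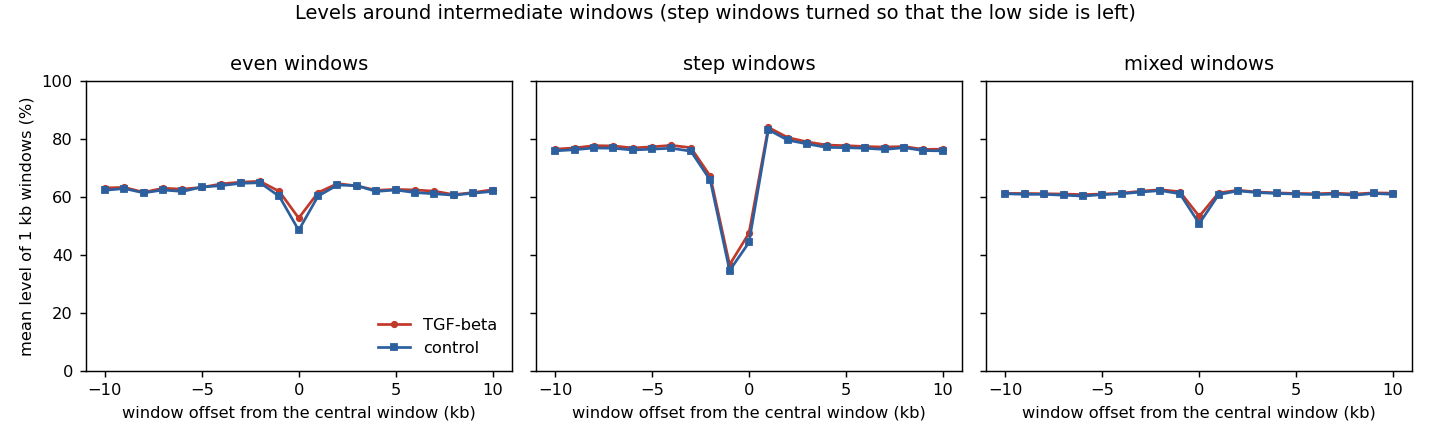
Mean level of 1 kb windows up to 10 kb on either side of even, step and mixed windows (TGF-beta red, control blue); step windows are turned so that the low side is left. Even and mixed windows form a narrow dip, and step windows a trough whose lowest point, 36.6% and 34.6%, is the window on the low side.

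By density the intermediate windows were closer to methylated than to unmethylated CpG-dense windows. They held a median of 53 listed sites spaced 10.5 bp apart, against 79 sites and 7 bp in unmethylated windows and 55 sites and 11 bp in highly methylated ones. Within them, the mean level varied little with the distance to the nearest other CpG. It was 52% in the TGF-beta library and 47.6% in the control at sites 2 bp from the next, and 52.7% and 50.6% at 11 to 20 bp. At 21 to 50 bp the means were 49.4% and 48%, closer to each other than at the densest sites.

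The windows were found on each autosome and in domains of all levels. They made up 4.64% of CpG-dense windows on chromosome 33 and 11.8% on chromosome 24, with a median of 7.62% over autosomes. The last 3 Mb of the autosomes held 1236 (18.9%) of them, against 24.2% of all CpG-dense windows, 6.14% of unmethylated and 30.3% of highly methylated ones. The surrounding 100 kb, without the window itself, was at a median of 67.6% in the TGF-beta library and 66.9% in the control. It was under 50% in the control for 9.91% of the windows, against 6.27% of all CpG-dense windows, 3.43% of unmethylated and 2.86% of highly methylated ones. Among even windows this share was 17.2%, among mixed windows 12.9% and among step windows 3.45%.

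The windows were higher in the TGF-beta library in domains of each level, and the domains themselves differed less. In domains under 50% in the control, the 648 intermediate windows had a median difference of 1.97 points while their domains had -0.435. In domains of 50 to 70% the medians were 2.24 points for 3397 windows and 0.535 for their domains, and in domains of 70% or more 2.59 points for 2493 windows and 0.749 for their domains.

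Runs of adjacent windows that each met the rule, its CpG density included, were short. Of the 6538 windows, 5540 had no such neighbour, although 2674 of 6184 had an adjacent window of any density at 30 to 60%. Of the others 846 lay in pairs, 105 in runs of 3, 32 in runs of 4 and 15 in runs of 5. The longest runs, of 5 windows, were on chromosome 28 at 28002001 to 28007000 and at 38606001 to 38611000 and on chromosome 2 at 64242001 to 64247000. The run at 28002001 held 422 kept sites at a mean of 53.5% in the TGF-beta library (54.9% by summed calls, 54 to 55.7, 13571 calls) and 46.7% in the control (48.4%, 47.3 to 49.5, 7512 calls), with 2 even and 3 mixed windows. The run at 38606001 was at 59.1% in the TGF-beta library and 49.7% in the control, and that on chromosome 2 at 61.9% and 50.6% with 244 of 398 listed sites kept.

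Of the next longest runs, each of 4 windows, that on chromosome 20 at 57936001 to 57940000 was at 45.1% in the TGF-beta library and 39.8% in the control. The run on chromosome 9 at 2128001 to 2132000 was at 45.1% and 45.8%. The 4 windows of that run were all mixed and lay between 37.3% and 55.2% in the TGF-beta library and between 39.8% and 53.7% in the control. In these 5 runs, of 5 or 4 windows each, 1 window was called higher and 0 were called lower by Fisher's exact test. The shares were 2.22% and 1.43% over all windows tested, and 0.389% and 0.131% over CpG-dense windows. So few windows cannot show whether runs are called more or less often.

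The largest rises were found among 60 windows that were called higher, had usual depth and at least 20 kept sites, and differed by 10 points or more on each strand. On chromosome 6 at 12469001 to 12470000 the mean level was 86.1% in the TGF-beta library and 45.3% in the control. Summed calls gave 86.2% (84.6 to 87.7, 1951 calls) and 46.3% (43.4 to 49.2, 1178 calls). The strands were at 85.6% and 87.2% in the TGF-beta library and at 45.9% and 42.9% in the control. Both parts of its sites were at 86% in the TGF-beta library, against 27% on the left and 64.1% on the right in the control. The windows before and after it were at 88.9% and 90.4% in the TGF-beta library and at 81.7% and 91% in the control, so its level in the TGF-beta library was near that of its surroundings.

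The other large rises differed in shape. On chromosome 9 at 43718001 to 43719000, an even window in the control with a site SD of 12 points, the level was 84.6% in the TGF-beta library and 47.7% in the control. It too lay between methylated windows, at 93.6% and 94% in the TGF-beta library and 86.2% and 95.1% in the control. On chromosome 14 at 40085001 to 40086000 the level was 67.6% and 31.3%, and the window was even in both libraries. On chromosome 27 at 2865001 to 2866000 the level was 80.5% and 48.5%. Its left part was at 68% in the TGF-beta library, against 18.5% in the control, where it was the low side of a step. The window before it was higher too, at 60.7% in the TGF-beta library and 17.7% in the control. On chromosome 20 at 56965001 to 56966000 the level was 69.7% and 38%, next to a window at 2.2% in the TGF-beta library and 0.665% in the control.

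Only 5 windows met the same limits for a fall, and they too differed in shape. On chromosome 25 at 45697001 to 45698000 the level was 30.1% in the TGF-beta library and 53.7% in the control. On chromosome 22 at 4577001 to 4578000 it was 24.3% and 47.2%, and the right part of its sites was at 2.48% and 27.8%. On chromosome 9 at 55846001 to 55847000 it was 10.9% and 33.7%, or 12.1% (10.9 to 13.2, 3160 calls) and 36.6% (34.1 to 39.2, 1385 calls) by summed calls. On chromosome 25 at 46527001 to 46528000 it was 22.1% and 43.9%. On chromosome 16 at 18867001 to 18868000 it was 46.8% and 59.5%, a difference of -12.6 points in the mean over sites, against -23.5 by summed calls, and its right part was at 71.1% and 67.4%. Both windows on chromosome 25 had adjusted p-values of 1.63e-45 and 7.33e-32 in Fisher's exact test, which counts linked calls and not cultures.

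The windows next to the limits of the rule are given as a description. Just inside 30% in the control were windows on chromosome 6 at 9066001, with 32.9% in the TGF-beta library and 30.0243% in the control, and on chromosome 11 at 1999001, with 32% and 30.0299%. Just outside were chromosome 9 at 54176001, with 46.2% and 29.9994%, and chromosome 10 at 17271001, with 29.2% and 29.9958%. Just inside 60% were chromosome 13 at 33850001, with 56.1% and 59.9994%, and chromosome 7 at 22731001, with 60.2% and 59.9977%. Just outside were chromosome 13 at 38587001, with 57% and 60.0000%, and chromosome 28 at 39477001, with 63.4% and 60.0011%. Of 7043 CpG-dense windows with a control mean of 30 to 60%, 505 were left out by the strand limits.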

How the data were processed

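The authors deposited counts of methylated and unmethylated calls per CpG cytosine, with strands on separate lines. The submitters' processing notes name Bismark, Bowtie 0.12.8 and canFam3. The extraction protocol in the labels names another aligner, SOAPaligner2. Removal of duplicates and quality filters are not given in the sources, and kept duplicates would leave intervals too narrow. The methylated column was identified from mitochondrial DNA, where it made up 0.329% of calls in the TGF-beta library and 0.211% in the control. In each file 1 line naming no chromosome was left out, with 6 calls in the TGF-beta library and 12 in the control.

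Adjacent positions were joined to 25888236 CpG sites, and a site was placed by its first position. Runs of positions with no clear pairing, 0.00656% of calls, were left out. The level on a strand was the mean of site levels over paired sites with a call there. Windows with at least 5 kept sites entered Fisher's exact test. The exact test was coded with numba 0.67.0 and intervals came from scipy 1.17.1, in Python 3.11.15, tables used pandas 2.3.3, and figures matplotlib 3.10.9. The exact test was tried on simulated windows whose calls were drawn independently at 1 level per library. The placing of edges was tried on simulated windows with a low and a high stretch. Neither simulation held linked calls, so they do not check the calls made in real windows.

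Windows, patterns and rules for naming were chosen with earlier results of these data known. Named windows came from a pool with at least 20 kept sites and 0.5 to 2 times the usual calls per site: the 5 largest called rises and falls, the 4 most even and the 4 steepest steps. The 5 longest runs and the windows at the limits came from outside that pool too. Gene context and sequences were planned and are not analysed here, since no canFam3 genome or annotation was used.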

Additional observations from a re-analysis of the deposited data

How the results depend on the processing

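No paired analysis was possible because each group has 1 library, and for the same reason no library could be left out. Of 109 values for the intermediate windows under alternatives, 55 stayed within the 95% interval over windows or, for counts, within 1.5 times, and 54 moved. Only the median difference could change sign, and it stayed positive throughout. A minimum of 50 listed sites gave 3823 windows, a median difference of 3.02 points, 74 called higher, 19 called lower, 42% with a step and 13.3% even. A control range of 35 to 55% gave 3730 windows, 2.69 points, 75 higher, 23 lower, 42.7% with a step and 11.7% even. First positions alone gave 237 higher, 117 lower and 2.55 points, and second positions alone 249 higher and 111 lower. Summed calls gave 2.54 points. A size limit of 10 points gave 963 higher and 313 lower, a limit of 30 points 12 and 4, and 20 points also by the mean of site levels 55 and 7. Equal calls per site gave 73 higher and 7 lower. That setting tests fewer calls and also gives each site the same weight in both libraries, and which of these lowered the counts was not tested. A step at 30 points gave 45.7% with a step and 9.79% even, an even limit of 80% of sites gave 4.28% even, and 10 calls per site gave 11.5% even.

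The following were chosen after seeing the data, except for the choice by the TGF-beta library, which gave a median difference of 1.4 points. The strand limits can be read in more than 1 way, and by summed calls they gave 5413 windows with 18 called lower, 30.1% with a step and 12.4% even. Choosing on first positions of the control alone, without the other limits on level, and reading the second gave 2.02 points, and the reverse 2.18. Patterns read in the TGF-beta library gave 34.6% with a step and 5.98% even, and windows alike on both strands 9.48% even. Where no reason is given, the cause was not tested. Of 90 values for named windows, 74 moved by 5 points or less and 16 moved by more. None of the named rises and falls changed sign. They had been picked by summed calls and by each strand, so under those settings their sign was set beforehand. At the 15 calls of a usual control site, single site levels are coarse.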
